A study of Mus musculus with 96 samples.

Results

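The miR-30 family was followed in mouse cortex through its 6 precursor stem-loops, Mir30a (MI0000144), Mir30b (MI0000145), Mir30c-1 (MI0000547), Mir30c-2 (MI0000548), Mir30d (MI0000549) and Mir30e (MI0000259), out of 1187 stem-loops in the deposited tables. The members were taken by these miRBase accessions, a rule that uses no measured value. Small RNA had been sequenced from the cortex of WT mice and of mice heterozygous for a knock-in of human HTT exon 1 into 1 Htt allele with CAG repeats of 4 lengths, which name the lines Q20, Q50, Q92 and Q140. Long repeats of this kind cause Huntington's disease in people. The 96 libraries form 12 groups of 8, with 4 females and 4 males each: WT mice of the Q20 line, WT mice of the Q50 line, Q20, Q50, Q92 and Q140, each at 6 and at 10 months. All were on a C57BL/6 background. Following the study, Q20 mice were counted with both WT groups as controls. Q92 and Q140 have no WT littermates among these libraries, so line and genotype cannot be told apart for them. In the labels Q20 and Q50 mice are housed with WT mice but Q92 and Q140 mice only with their own genotype, while the study's methods describe mixed cages, so a difference in housing cannot be told apart from genotype either. Library totals lay between 4797428 and 7651621 counts in 6-month mice and between 3698376 and 12142170 counts in 10-month mice. A screen for libraries that stand apart from the rest (connectivity Z below -5) left out 12 libraries, 6 at each age, and 84 entered the tests. Of those left out, 3 are Q92 females at 10 months.

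MicroRNAs are cut from hairpin precursors and guide silencing complexes to messenger RNAs that pair with the seed, a short run of bases near the 5′ end. All miR-30 members share the seed of their 5p arm and are therefore expected to recognise overlapping sets of messages. In other systems miR-30a is known to repress Becn1, a regulator of autophagy, and Bdnf, a growth factor that cortical neurons supply to the striatum. The members are transcribed from 3 places, and each place holds a pair of stem-loops on the same strand.

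The RefSeq sequences (GRCm38.p6) are shown because the arms that members share decide which of their reads can be told apart. Sequences were found for 4 of the 6 members, and Mir30b and Mir30d are named only. Each line runs 5′ to 3′, with the seed (bases 2 to 8) in capitals.
mmu-miR-30a-5p: uGUAAACAuccucgacuggaag
mmu-miR-30e-5p: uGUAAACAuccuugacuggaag
mmu-miR-30c-5p: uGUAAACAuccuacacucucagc
mmu-miR-30a-3p: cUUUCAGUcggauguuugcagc
mmu-miR-30e-3p: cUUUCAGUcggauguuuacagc
mmu-miR-30c-1-3p: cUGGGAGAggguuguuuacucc
mmu-miR-30c-2-3p: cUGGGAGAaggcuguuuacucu

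These 5p arms begin with the same 12 bases, so the seed GUAAACA is common to them. With positions counted from 1 at the 5′ end and the first-named sequence given first, miR-30a-5p and miR-30e-5p differ by 1 base (C13U), and their 3p arms also by 1 base (G18A). Between miR-30a-5p and miR-30c-5p there are 5 differences over the length of the shorter sequence (C13A, G14C, G18C, G19U and A20C). Mir30c-1 and Mir30c-2 give an identical 5p arm from stem-loops on different chromosomes, and their 3p arms differ at 3 positions (G9A, U12C and C22U). Both stem-loops are printed with that common arm in capitals.
Mir30c-1 stem-loop: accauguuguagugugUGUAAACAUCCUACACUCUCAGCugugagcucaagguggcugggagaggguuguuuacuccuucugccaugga
Mir30c-2 stem-loop: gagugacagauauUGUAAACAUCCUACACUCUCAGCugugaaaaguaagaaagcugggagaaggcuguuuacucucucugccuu
The longest run of bases common to these stem-loops is 28, against 18 for Mir30a and Mir30e.

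In GRCm38, Mir30a lies at chr1:23272269-23272339 and Mir30c-2 at chr1:23291701-23291784, both on the plus strand and 19361 bases apart. Mir30c-2 falls in an exon of the noncoding gene Gm27028. Mir30c-1 (chr4:120769534-120769622) and Mir30e (chr4:120772606-120772697) are 2983 bases apart on the minus strand. Both are intronic in Nfyc, which encodes a subunit of the NF-Y transcription factor and runs in the same direction. Mir30b (chr15:68337415-68337510) and Mir30d (chr15:68341208-68341289) are 3697 bases apart on the minus strand. Mir30d lies in an exon of the noncoding gene Gm20732, and Mir30b overlaps an exon of Gm26621. A further stem-loop, Mir30f, is annotated on the opposite strand over the same bases as Mir30e.

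Many of the deposited counts are not whole numbers, and the pattern of their fractions shows which members shared reads. Values were called whole when they lay within 0.06 of a whole number. Mir30d was whole in 95 of 96 libraries, while each of the other members was whole in 6 to 9. The sum of Mir30b, Mir30c-1 and Mir30c-2 was whole in 96 of 96 libraries, although the sums of any 2 of them were whole in only 6 to 9. A second sum of this kind held Mir30a, Mir30e and 1 stem-loop given as MI0021961, and it was whole in 95 of 96 libraries. MI0021961 had exactly the values of Mir30e in all 96 libraries and the same length of 92 bases. Mir30f covers the same bases as Mir30e, but MI0021961 could not be paired with a name here. Mir30d is therefore the member with the least visible division, in 1 library only (WT female 3 of the Q20 line at 10 months, 171589.23 counts). How the authors' counting divided the shared reads is not stated, and the values of the other 5 members are uncertain to that extent.

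The family was one of the abundant groups of the cortex and took 7.77 ± 0.571% of the counts of a library (SD, n = 96 libraries, range 6.71 to 9.98%). Of the family's counts, Mir30a held 44.1%, Mir30d 24.3%, Mir30c-2 17.4%, Mir30e 9.46%, Mir30b 3.72% and Mir30c-1 1.0%, as means over libraries. Mir30a was in place 7 among 1187 stem-loops by mean counts scaled to the library total (CPM), and Mir30c-1, the lowest member, was in place 103. The lowest count of any member in any library was 2309.4, so none was near the detection limit.

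Levels were compared between members per length, on the FPKM scale (fragments scaled to stem-loop length and library total). The order was Mir30a with 482042 ± 32903, Mir30d with 230347 ± 24493, Mir30c-2 with 161298 ± 24883, Mir30e with 80050 ± 10240, Mir30b with 30029 ± 2868 and Mir30c-1 with 8738 ± 883.7 FPKM (mean ± SD, n = 96 each). This order held in 96 of 96 libraries. Over libraries, only the ranges of Mir30d and Mir30c-2 overlapped. The members of each genomic pair were unequal in level, with Mir30a above Mir30c-2, Mir30d above Mir30b and Mir30e above Mir30c-1. Mir30c-2 had the higher level of the pair that gives the same 5p arm. FPKM values divide by the stem-loop, not by the mature microRNA, and the ranking of members that shared reads rests on how those were divided. The level of Mir30e leaves out the equal counts given to MI0021961. MI0021961 has the same counts and length, and so a mean of 80050 FPKM as well. With both counted, the mean would come close to that of Mir30c-2. The order and the separate ranges of Mir30c-2 and Mir30e therefore hold only for Mir30e without these counts. The order with them added was not tested library by library.

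Across the 12 groups the members moved within narrow limits. On the CPM scale after TMM scaling, the highest group mean was 1.09 times the lowest for Mir30a (35610 CPM in Q92 at 6 months, 32646 CPM in Q50 at 10 months) and 1.19 times for Mir30b. The ratio was 1.21 for Mir30c-2, 1.24 for Mir30e, 1.32 for Mir30c-1 and 1.33 for Mir30d. Within groups the coefficient of variation ran from 2.58% (Mir30b, Q92 at 6 months) to 19.7% (Mir30c-2, Q20 at 10 months). In Mir30d the lowest group mean was 16476 CPM, in the WT group of the Q20 line at 10 months, and the highest 21963 CPM, in Q92 at 6 months. In bulk cortex, fewer cells of a type and less RNA per cell cannot be told apart.

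**Figure D1:**
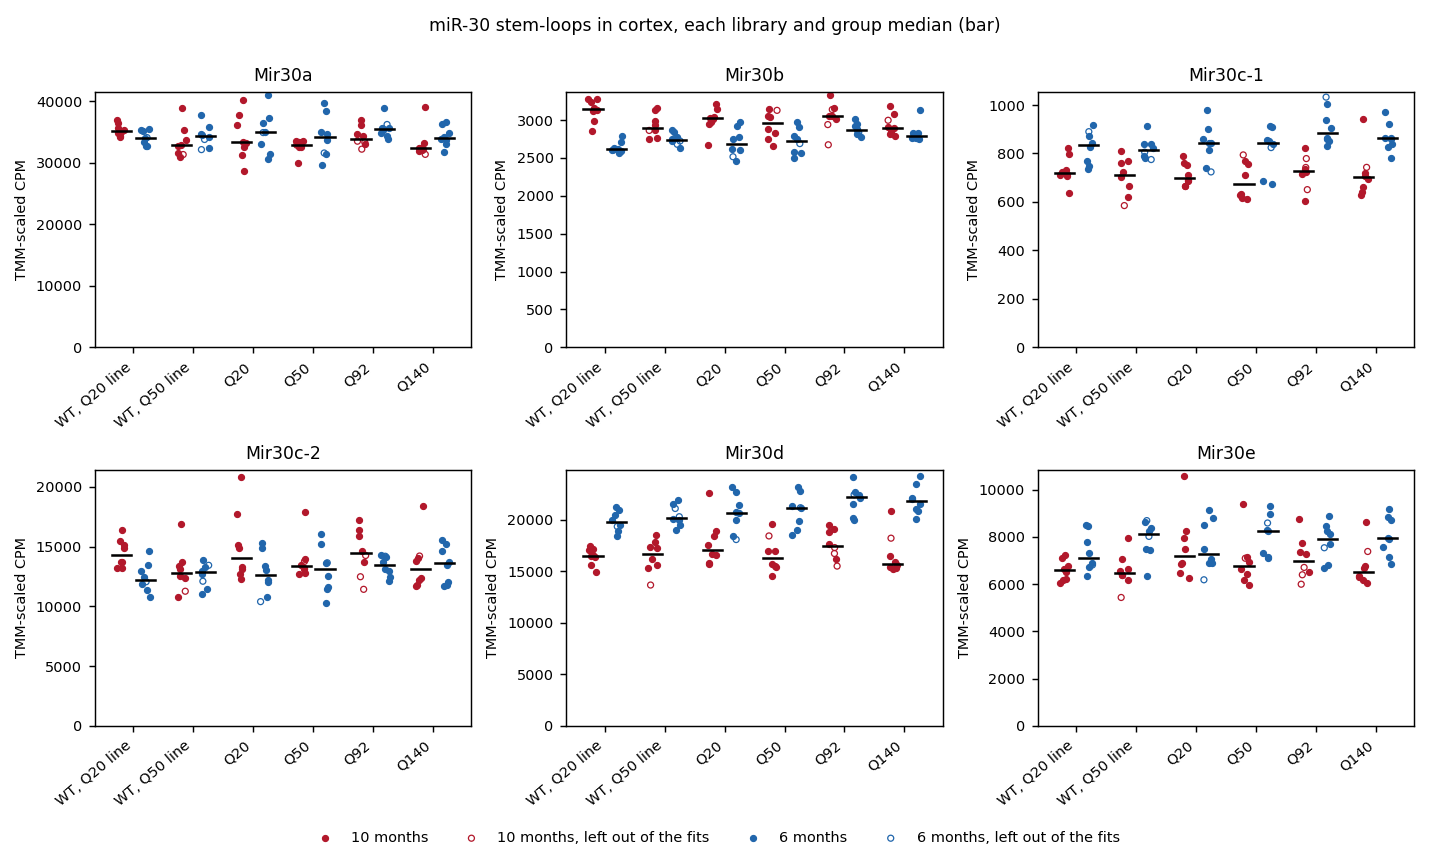
TMM-scaled CPM of each member in all 96 libraries, by genotype from WT to Q140, with 10 months in red and 6 months in blue. Each point is a library, open points were left out of the tests and bars mark group medians. The ages separate most in Mir30d, where 10 months is the lower, while genotype groups of the same age overlap in every member except Mir30a at 10 months, where Q50 lies below WT mice of the Q20 line.

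Members varied together to unequal degrees from library to library. Within groups, over 84 libraries that share a scaling factor per library, Mir30d and Mir30e had the highest correlation of log2 CPM (Pearson r = 0.881), followed by Mir30c-2 with Mir30e (r = 0.865) and Mir30c-2 with Mir30d (r = 0.838). None of these 3 pairs is a genomic pair. The lowest value was that of Mir30c-1 with Mir30e (r = 0.191), which both lie in Nfyc. Outside the family, among the 311 that averaged at least 10 CPM, the most similar to Mir30c-2 was MI0000617 (r = 0.868), which was also first for Mir30b (r = 0.600).

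**Figure D2:**
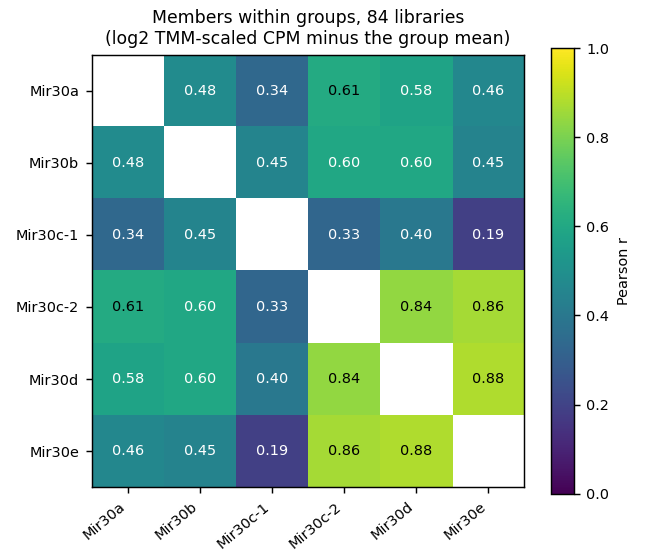
Pearson r between members of log2 TMM-scaled CPM centred within each of the 12 groups, over 84 libraries. Mir30c-2, Mir30d and Mir30e form the block of highest values, with r between 0.838 and 0.881, and Mir30c-1 with Mir30e has the lowest r, 0.191.

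The first comparison asked whether long CAG repeats changed the members at 6 months. With TMM scaling in edgeR, Mir30b was called 7.58% higher in Q92 mice than in controls at 6 months. Mir30b and Mir30d were called higher with CAG length at that age. These differences were small, and no member was called lower. Each of these calls was lost in some of the other settings given below. Mir30b had 2782, 2883 and 3010 CPM in Q92 mice (lowest, median and highest, n = 7), against 2457, 2721 and 2976 CPM in controls (n = 20). All 7 Q92 libraries lay above the control median, but the ranges overlapped. The log2 difference was 0.11 ± 0.03 (SE), with a false discovery rate (FDR) of 0.0377 from edgeR (quasi-likelihood test, p-values adjusted by Benjamini-Hochberg over every stem-loop in the fit). In this comparison 11.8% of all stem-loops were called at FDR 0.05 (51 of 431), against 1 of the 6 members.

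Mir30d had 20015, 22111 and 24170 CPM in Q92 mice and 18444, 20309 and 23173 CPM in controls at 6 months. Its log2 difference was as large as that of Mir30b, 0.11 ± 0.04, but its FDR in edgeR was 0.0636. It passed without any 1 of 3 control libraries, Q20 female 3, Q20 male 2 or WT male 1 of the Q50 line (FDR 0.0289 to 0.0496 in edgeR). Log2 differences of Q92 over controls were also positive but not called for Mir30c-1 (0.11 ± 0.05), Mir30c-2 (0.08), Mir30a (0.05) and Mir30e (0.05). The median over members was 0.09, against 0.01 over all stem-loops. Between control groups at 6 months the median over members was also the higher. It was 0.04 against -0.01 for Q20 over its WT, and 0.03 against 8e-04 for WT of the Q50 line over WT of the Q20 line.

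The slope on CAG length at 6 months, over 42 libraries with WT set to 7 repeats, was 0.09 ± 0.03 log2 units per 100 repeats for Mir30d (FDR 0.0218 in edgeR). For Mir30b the slope was 0.07 ± 0.02 log2 units per 100 repeats (FDR 0.0482 in edgeR). The other 4 members had slopes between 0.003 and 0.08 and were not called. In this fit 12.3% of all stem-loops were called, 55 of 447, against 2 of the 6 members.

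The calls at 6 months did not hold without some single libraries or under another scaling. Against controls, the Q92 call was lost without any 1 of 6 Q92 libraries, females 1, 2 and 3 and males 2, 3 and 4 (log2 difference 0.10 to 0.11, FDR 0.0571 to 0.0888 in edgeR). It was also lost without any 1 of 6 control libraries, Q20 female 2 and male 4, WT female 3 and male 1 of the Q20 line, and WT female 3 and male 3 of the Q50 line (log2 difference 0.08 to 0.10, FDR 0.0506 to 0.128 in edgeR). The Mir30b slope was lost without any 1 of 16 of the 22 libraries of Q50, Q92 and Q140 mice. The 16 were Q50 females 1, 2 and 3 and males 2 and 4, all Q92 females and Q92 males 2, 3 and 4, and Q140 females 1, 2 and 4 and male 2 (0.05 to 0.07, FDR 0.0508 to 0.148 in edgeR). Q20 and WT libraries were not left out in turn for the slope. The Mir30d slope was lost without Q140 female 4 or Q92 male 3 (0.08 each, FDR 0.0521 to 0.0633 in edgeR). With library totals in place of TMM scaling, the Q92 difference of Mir30b was 0.03 (FDR 0.618 in edgeR), while the median of all stem-loops moved by -0.07. The slopes were then 0.03 for Mir30b (FDR 0.484) and 0.05 for Mir30d (FDR 0.172). With no low-count filter the slope of Mir30d was 0.08 (FDR 0.0641 in edgeR), the Q92 difference of Mir30b 0.08 (FDR 0.27) and its slope 0.05 (FDR 0.232). Mir30b shares reads with Mir30c-1 and Mir30c-2, and their sum was not called. The sum had a Q92 difference of 0.07 (FDR 0.378 in edgeR) and a slope of 0.07 (FDR 0.257). In that fit the slope of Mir30d was still called (0.09, FDR 0.0273).

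A set of 8 stem-loops that rise and fall together across libraries also had a lower median level in Q92 and Q140 than in controls at 6 months. The set was picked from these data, by the largest weights on the main axis of variation among control libraries. The set therefore has a wide spread among controls by selection, and its difference between groups was not tested. Its summed level was 280, 688 and 1136 CPM in the Q92 libraries tested (lowest, median and highest), and 396, 714 and 1168 CPM in Q140, against 600, 1334 and 18507 CPM in controls, with overlap. Within groups its level had r between -0.18 (Mir30b) and 0.04 with the members (n = 84). With that level as a covariate, the Q92 difference of Mir30b was 0.09 (FDR 0.204 in edgeR) and the slopes were 0.05 for Mir30b (FDR 0.351) and 0.08 for Mir30d (FDR 0.227). In the labels a field with the values L1 to L3, whose meaning is not given, splits the libraries. Within L1 and L2, the Q92 differences at 6 months were 0.09 and 0.10 for Mir30b, and 0.13 and 0.06 for Mir30d.

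At 6 months Q140 mice, with the longest repeats, had 2754, 2796 and 3138 CPM of Mir30b (n = 8, against 2457, 2721 and 2976 CPM in controls). All 8 lay above the control median, with overlap. Mir30d had 20110, 21806 and 24304 CPM in Q140 mice. Neither was called, with an FDR of 0.0982 for Mir30d in the edgeR fit. In Q140, 0 members were called by edgeR and 0 by DESeq2, with 2 at an unadjusted p under 0.05 in edgeR. Of all stem-loops, edgeR called 1.86% and DESeq2 6.99%. In Q50 mice at 6 months 0 members were called by either tool and none was at an unadjusted p under 0.05 in edgeR. Of all stem-loops, edgeR called 0% and DESeq2 0.928%.

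**Figure D3:**
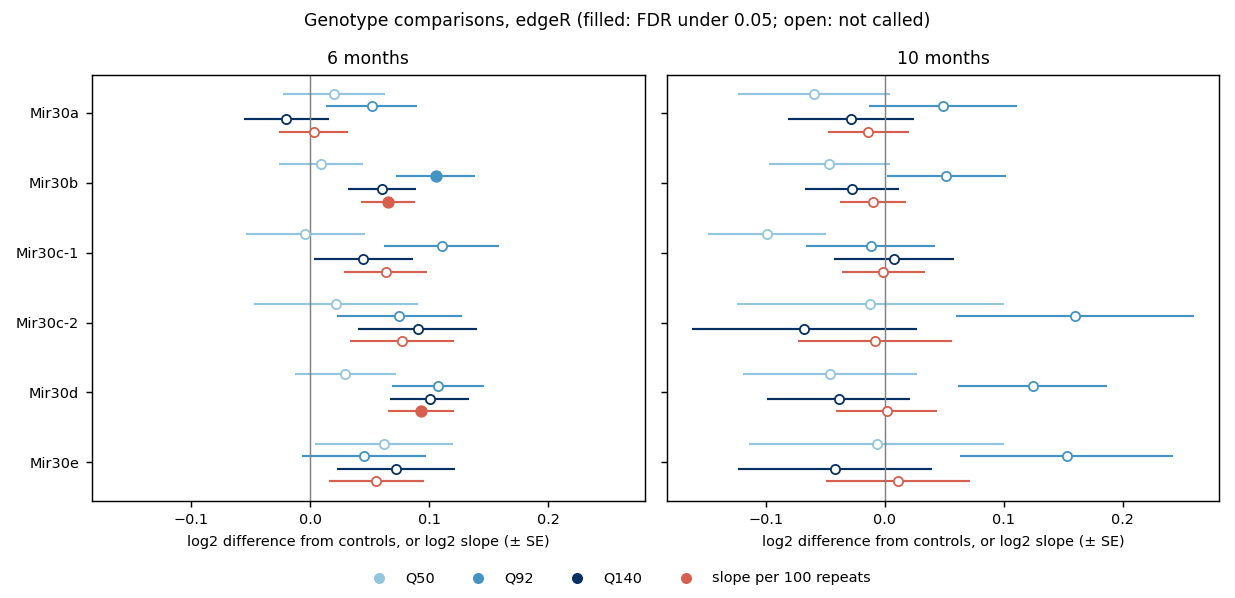
Log2 difference from controls (Q50, Q92, Q140) and slope per 100 CAG repeats for each member, at 6 and 10 months, from edgeR. Error bars are SE and filled points were called at FDR 0.05. The filled points are Mir30b in Q92 (0.11) and Mir30b and Mir30d in the slope (0.07 and 0.09), all at 6 months, and the 10 month slopes lie between -0.01 and 0.01.

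At 10 months no member was called in Q50, Q92 or Q140 mice or in the slope. Over the 18 tests of Q50, Q92 and Q140, log2 differences ran from -0.10 to 0.16, with SE of 0.04 to 0.11, and the lowest FDR in edgeR was 0.593. The largest differences were those of Mir30c-2 (0.16), Mir30e (0.15) and Mir30d (0.12) in Q92 mice, of which only 5 libraries were tested. With all libraries kept, these were 0.05 for Mir30c-2, 0.06 for Mir30e and 0.07 for Mir30d. DESeq2 also called 0 members, none was at an unadjusted p under 0.05 in edgeR, and of all stem-loops edgeR called 0% (Q50), 0% (Q92) and 1.61% (Q140), and DESeq2 0%, 0% and 2.99%. Slopes at 10 months lay between -0.01 and 0.01 log2 units per 100 repeats, where edgeR called 1.1% of all stem-loops.

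The slopes at 10 months were lower than those at 6 months in all 6 members, with changes of -0.09 to -0.01 log2 units per 100 repeats. The test of this change called 0 members in edgeR and 0 in DESeq2, with 1 at an unadjusted p under 0.05 (Mir30b, FDR 0.227). Of all stem-loops, edgeR called 1.69% and DESeq2 6.78%. The ages were therefore not shown to differ. With the ages combined, Mir30d was called in Q92 mice (mean log2 difference 0.12, FDR 0.0264 in edgeR), where edgeR called 6.74% of all stem-loops, and Mir30b was not (0.08, FDR 0.0643). The Mir30d call was lost with all libraries kept (0.09, FDR 0.0555), with no low-count filter (FDR 0.139), with a filter at a mean of 10 CPM (FDR 0.092), with the co-varying set as a covariate (FDR 0.125) and with library totals (0.06, FDR 0.367), all in edgeR. In edgeR no member was called in the combined results for Q50 (0% of all stem-loops), Q140 (1.17%) or CAG length (1.59%). DESeq2 likewise called 0 members in these 3 (0%, 4.91% and 4.08% of all stem-loops), and in edgeR at an unadjusted p under 0.05 there were 0, 0 and 1 members.

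Q20 and Q50 against WT mice of their own line separate genotype from line, and the WT groups compare the lines themselves. Q140 against Q92 sets different lines against each other, so it cannot separate repeat length from line. Q20 against its WT, Q50 against its WT, the WT groups of both lines against each other and Q140 against Q92 gave 48 tests of members over both ages. None was called by edgeR or DESeq2, none was at an unadjusted p under 0.05, and log2 differences ran from -0.12 to 0.18 with SE of 0.03 to 0.12. Of all stem-loops, edgeR called 0% in each of these at 6 months, where DESeq2 called 0% (Q20), 0% (Q50), 1.91% (WT groups) and 1.21% (Q140 against Q92). At 10 months edgeR called 7.42% (Q20), 0% (Q50), 0.481% (WT groups) and 0% (Q140 against Q92), and DESeq2 13.9%, 0%, 4.09% and 0.234%.

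Male and female mice were compared over both ages. Log2 differences of males over females lay between 0.007 and 0.04 in the 6 members (41 males, 43 females). In this comparison 0 members were called by edgeR or DESeq2, none was at an unadjusted p under 0.05 (lowest FDR 0.521 in edgeR), and edgeR called 1.66% and DESeq2 2.61% of all stem-loops.

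Between the ages, members differed in both directions. The ages cannot be told apart from differences in library preparation or sequencing between them. In controls, edgeR called 45.6% of all stem-loops between 10 and 6 months (194 of 425) and 4 of the 6 members, with Mir30b and Mir30c-2 higher and Mir30c-1 and Mir30d lower at 10 months. DESeq2 also called 4, with 46.1% of all stem-loops.

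Mir30d had 14955, 16652 and 22664 CPM in controls at 10 months (n = 23) and 18444, 20309 and 23173 CPM at 6 months (n = 20). The highest control library at 10 months, Q20 male 1, lay among those of 6 months. The log2 difference was -0.24 ± 0.03 (FDR 9.15e-08 in edgeR). Mir30d was lower at 10 months in each of the 6 genotypes, with log2 differences of -0.41 to -0.22, and did not overlap between the ages in 3 of them. Of 311 stem-loops, the share that did not overlap was 18.6% in WT mice of the Q20 line, 9.32% in WT mice of the Q50 line, 9% in Q20, 8.04% in Q50, 10.3% in Q92 and 12.2% in Q140.

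Mir30b, the neighbour of Mir30d, went the other way. It had 2667, 3031 and 3277 CPM in controls at 10 months, against 2457, 2721 and 2976 CPM at 6 months. The log2 difference was 0.18 ± 0.03 (FDR 1.99e-07 in edgeR), and it was positive in each of the 6 genotypes (0.05 to 0.25).

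The counts given to the stem-loops of the identical miR-30c-5p also differed in opposite directions. Both shared reads with each other and with Mir30b, and these directions rest on how the shared reads were divided, which is not known. Mir30c-2 had 10823, 13673 and 20868 CPM in controls at 10 months and 10758, 12829 and 15283 CPM at 6 months, with a log2 difference of 0.19 ± 0.06 (FDR 0.00582 in edgeR). Mir30c-1 had 619, 715 and 822 CPM at 10 months and 737, 840 and 981 CPM at 6 months, with a log2 difference of -0.19 ± 0.03 (FDR 7.56e-06 in edgeR). Both ranges overlapped between the ages. When both stem-loops were summed, the log2 difference was 0.17 (FDR 0.00662 in edgeR), which is the direction of Mir30c-2 and turns that of Mir30c-1. Most of the sum is Mir30c-2, so it cannot check the direction of Mir30c-1.

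Mir30e and Mir30a changed less. Mir30e had 6048, 6649 and 10571 CPM in controls at 10 months and 6329, 7497 and 9132 CPM at 6 months, and its log2 difference of -0.12 ± 0.05 was not called (FDR 0.0599 in edgeR). Mir30a, the most abundant member, had 28658, 34403 and 40147 CPM at 10 months and 30676, 34595 and 40953 CPM at 6 months. Its log2 difference was 0.01 ± 0.03 (FDR 0.815 in edgeR), and 0.08 with library totals in place of TMM scaling (FDR 0.0363).

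In Q50, Q92 and Q140 mice, used in place of controls, the same test gave log2 differences between 10 and 6 months of 0.13 for Mir30b, 0.14 for Mir30c-2, -0.24 for Mir30c-1, -0.31 for Mir30d and -0.15 for Mir30e. All 5 were called in edgeR, and Mir30a was not (-0.01). In this fit 48.3% of all stem-loops were called (203 of 420). Sums that hold all visibly shared reads gave 0.17 ± 0.05 for Mir30b with Mir30c-1 and Mir30c-2 in controls (FDR 0.0025 in edgeR), and -0.03 for Mir30a with Mir30e and MI0021961 (FDR 0.542). In that fit Mir30d, which was left as a feature of its own, was at -0.24 (FDR 3.97e-08).

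Ratios within a library do not depend on scaling. The count of Mir30b over that of Mir30d was 0.133, 0.180 and 0.209 at 10 months (lowest, median and highest, n = 48 libraries), against 0.115, 0.132 and 0.146 at 6 months. In 47 of 48 libraries at 10 months it lay above every library at 6 months, with Q20 male 1 as the exception. In controls Mir30b was called higher and Mir30d lower at 10 months, so their ratio combines both differences. The count of Mir30b also rests on how shared reads were divided. Ratios of stem-loops outside the family were not computed. Mir30d made up 20.2, 22.5 and 24.5% of the family's counts at 10 months, against 24.6, 26.3 and 28.4% at 6 months, and here the ages did not overlap. Of all 311 stem-loops, 0.643% did not overlap between these 48 and 48 libraries in TMM-scaled CPM, a scale on which each of the 6 members overlapped. That value is no background for ratios or family shares, which were not computed outside the family.

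The other genomic pairs were less separated. Mir30c-2 over Mir30a was 0.328, 0.417 and 0.545 at 10 months and 0.294, 0.375 and 0.461 at 6 months, with 43 of the 48 libraries at 10 months inside the range of 6 months. Mir30c-1 over Mir30e was 0.0688, 0.106 and 0.128 at 10 months and 0.0866, 0.107 and 0.137 at 6 months, with medians close together.

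**Figure D4:**
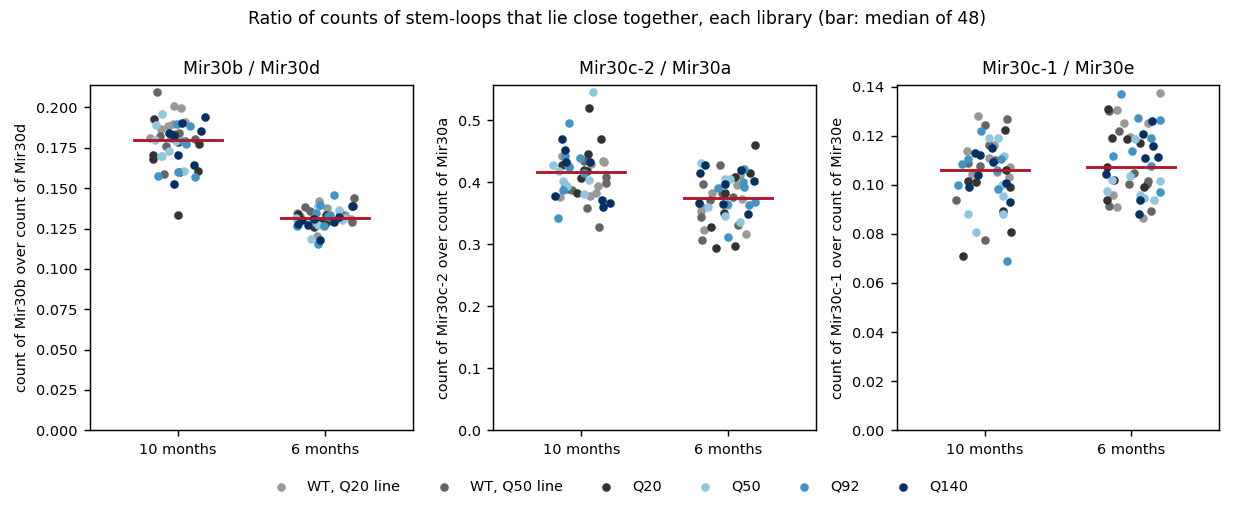
Count ratios of the genomic pairs Mir30b over Mir30d, Mir30c-2 over Mir30a and Mir30c-1 over Mir30e in each of 96 libraries, with 10 months left of 6 months and genotypes by colour. Bars mark medians of 48 libraries. Mir30b over Mir30d separates the ages except for Q20 male 1 at 10 months (0.133), and the other ratios overlap.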

How the data were processed

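Cortical small RNA of 96 libraries was analysed. Per the study's methods, RNA was column-extracted, enriched for small RNA and sequenced on an Illumina instrument, and the authors aligned reads to mm10 with STAR and counted them with HTSeq (versions not given in the sources used here, CASAVA 1.8.2 in the processing notes). The authors deposited an estimated count per stem-loop, not normalized, and FPKM values, whose implied lengths equal the RefSeq lengths of all 6 members. FPKM served for levels only. The authors' division of multimapping reads is not stated.

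Counts were rounded and fitted with edgeR 4.0.16 (R 4.3.3, TMM scaling, filterByExpr, robust quasi-likelihood), with sex and the L field as covariates and a separate fit for each comparison and age. The age comparison had sex and genotype group as covariates, because the L field could not be a term across ages. FDR 0.05 over all stem-loops was the threshold. Ages were combined by summed Z. Alternatives used DESeq2 1.42.0 and limma 3.58.1. All 6 members are described in every comparison. Samples were grouped by their labels, and p-values measure the spread between these samples. At these depths the lowest member count was 2309.4, so counting error is small beside the spread between mice. The methods were tested on simulated data with larger changes than those of the members and without shared reads. Changes as small as those of the members were not tested in this way.

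The rule for members uses no measured value, but the family was chosen as a subject, and the co-varying set, the summed features and other lists were chosen, with earlier results of these data known. Marker and neighbouring microRNA lists, and a check of the tissue by its markers, were not analysed here because the tables used here do not pair accessions with names.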

Additional observations from a re-analysis of the deposited data

Results flagged for a closer look

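In 84 groups of 8 libraries (6 members and the family's share, 12 groups each), 15 had a library whose gap to the next one was large for the range of its group. Chance flags about 1 in 20 groups. All of these libraries were kept in the tests, and no cause was tested.

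Q140 male 2 at 10 months was the highest of its group in Mir30a (39139 CPM, next 33257), Mir30c-1 (944 CPM), Mir30c-2 (18415 CPM) and the family's share of counts (9.42%, next 7.78%). Q50 female 2 at 10 months was the highest in Mir30c-2 (17931 CPM), Mir30e (9394 CPM) and the family's share (9.15%). WT female 2 of the Q50 line at 10 months was the highest in Mir30c-2 (16881 CPM) and the family's share (8.998%). Q20 male 1 at 10 months was the highest in Mir30d (22664 CPM) and Mir30e (10571 CPM), and is the library that overlapped with 6 months in the ratio of Mir30b to Mir30d.

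The remaining ones were single values. Mir30a was highest in Q92 female 3 at 6 months (38872 CPM) and lowest in Q50 male 2 at 10 months (29918 CPM). Mir30b was highest in Q140 male 2 at 6 months (3138 CPM, next 2829). The family's share was highest in WT male 2 of the Q20 line at 6 months (8.35%).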

How the results depend on the processing

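Over the comparisons and alternatives run, 1694 of 1728 values kept their status as called or not called. In 23 a call was lost, in 9 gained and in 2 reversed. Most of these values were not called in the main fit. A kept status therefore mostly means that an uncalled value stayed uncalled. A change of sign was counted as a reversal only where at least 1 of the fits called the value. Uncalled values that changed sign were counted as kept, such as Mir30a in Q92 at 6 months (0.05, and -0.02 with library totals). The age difference of Mir30c-1 reversed, to 0.17 when summed with Mir30c-2 and to 0.17 when stem-loops that share reads were summed, both sums being dominated by Mir30c-2. The cause of the other changes was not tested. In the CAG length slope at 6 months, 2 members were called. The count was 1 with DESeq2 size factors, limma, no L field, Mir30c-1 and Mir30c-2 summed or shared reads summed, and 0 with no low-count filter, library totals or the co-varying set as a covariate. For Q92 at 6 months, where 1 was called, it was 0 with no filter, a filter at a mean of 10 CPM, shared reads summed, library totals or the set as a covariate, and 3 with all libraries kept. For Q92 with ages combined, also 1, it was 0 with no filter, the 10 CPM filter, all libraries, library totals or the set, and 2 without the L field. For Q140 at 6 months, where 0 were called, it was 1 with all libraries or with WT mice alone as controls. Library totals, the set, the sums of shared reads, the age test in Q50, Q92 and Q140 mice and the omission of single controls were chosen after seeing the data.

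Leaving out 1 library at a time, the counts ran from 0 to 2 for Q92 at 6 months and from 0 to 2 for the slope at 6 months. For the slope only Q50, Q92 and Q140 libraries were left out in turn. Of 498 values from these fits, 465 kept their status as called or not called, 30 lost a call and 3 gained one. Most of them were not called in the main fit. Among values called there, Mir30b in Q92 at 6 months lost its call in 12 of 27 fits. The slope of Mir30b at 6 months lost it in 16 of 22 fits, and that of Mir30d in 2 of 22. Replicate numbers did not pair the libraries, since deviations of same-numbered libraries had a mean r of 0.0021, against 0.0045 for others. With the replicate number as a block, 0 members were called for Q92 at 6 months and 1 in the slope at 6 months, and Mir30e was called between the ages (FDR 0.0495 in edgeR). The family's share of counts was 8.505% with MI0021961 added.

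The lowest count of any member in a library was 2309.4. How shared reads were divided is not known, and its effect was tested only through the sums given here.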
